A study of Mus musculus with 12 samples.

Results

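The interleukin-1 (IL-1) family ligands and receptors measured here were 9 genes, Il1a, Il1b, Il18, Il1rn, Il18bp, Il1r1, Il1rap, Il1r2 and Il1rl1, taken by gene symbol from the 54532 mouse genes of the deposited expression table. All 9 were found in the table. They were followed in 4 groups of 3 RNA-seq libraries, all from bone marrow cells of WT mice expanded with CMG, which the labels describe as an M-CSF source. Untreated macrophages (bone marrow derived macrophages, no RANKL) and osteoclasts (the bone-resorbing cells that form when such cells are given RANKL, 100 ng/mL per the osteoclast sample labels and a range in the protocol) were sampled on day 5. The other 2 groups were the same cell types after 3 h with 100 ng/mL of lipopolysaccharide (LPS), a component of the outer membrane of Gram-negative bacteria. Libraries with and without LPS were compared within each cell type, and osteoclasts with macrophages at each LPS state. An interaction term tested whether the 2 LPS effects differed. It is negative where a rise with LPS was smaller in osteoclasts, and positive where a fall with LPS was smaller in osteoclasts. The labels state no strain, sex or age of the mice, and nothing says whether replicates came from separate animals or cultures, so p-values measure only the spread between these libraries, which may be technical.

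IL-1 alpha and IL-1 beta are inflammatory cytokines that bind the same receptor, IL1R1, which recruits the accessory chain IL1RAP and signals through MYD88 and the IRAK kinases to NF-kB and MAP kinases. IL-1 beta and IL-18 are made as inactive precursors that caspase-1 cleaves in inflammasomes. The pathway is held in check by a receptor antagonist (Il1rn), a decoy receptor (Il1r2) and a soluble binding protein for IL-18 (Il18bp). In bone, IL-1 is known to promote osteoclast formation and activity.

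Expression was measured in FPKM, the fragments of a gene per kilobase of its length on a scale set for each library. That scale was inferred to follow the typical gene, so a fold in FPKM can differ from a fold in reads. Recovered reads assigned to genes numbered 15065209 to 19582114 per library, and 9728 to 10301 genes reached 1 FPKM. A gene was tested with limma on log2(FPKM + 1) where it reached 1 FPKM in at least 3 of the 12 libraries, which left 11335 genes, and it was called at an adjusted p (Benjamini-Hochberg over all genes tested) under 0.05. The 10 osteoclast markers summed to between 29790 and 31240 FPKM in untreated osteoclasts and to between 16.3 and 20.5 FPKM in untreated macrophages, and Calcr was at 0 in the latter. Of 10 macrophage markers, 9 had a lower mean in untreated osteoclasts than in untreated macrophages, and the lysosomal protein gene Cd68 had a higher one, 1402 against 670.2 FPKM. Csf1r, the M-CSF receptor, was close, at 310.2 against 440.8 FPKM, and Cx3cr1 and Fcgr1 were below 0.5 FPKM in untreated osteoclasts. Osteoclasts had Adgre1, the F4/80 antigen, at 33.2 FPKM ± 3.34 (SD, n = 3) against 428 ± 3.49 in macrophages and Mrc1, the mannose receptor, at 2.57 ± 0.209 against 293 ± 2.68. Stromal markers summed to between 25.9 and 36.5 FPKM in the 6 macrophage libraries and to between 0.205 and 0.978 FPKM in the 6 osteoclast libraries, with 3 of 6 (untreated) and 4 of 6 (LPS) at a mean of at least 1 FPKM in macrophages and Dcn and Lum at 0 there. Neutrophil markers summed to between 5.70 and 8.57 FPKM in untreated and 6.88 and 16.4 FPKM in LPS-treated macrophages, with 3 of 9 at a mean of at least 1 FPKM, and to between 0.247 and 0.699 and between 0.569 and 1.88 FPKM in osteoclasts, with none; Ly6g and Elane were at 0 in both untreated groups and in osteoclasts with LPS. The 5 dendritic cell markers summed to between 0.273 and 0.293 FPKM in untreated and 5.26 and 6.02 FPKM in LPS-treated macrophages, where Xcr1 went from a mean of 0.150 to 5.31 FPKM and Flt3 was at 0 with LPS. In osteoclasts they summed to between 0.638 and 0.710 FPKM untreated and 1.28 and 1.71 FPKM with LPS, and Siglech was at 0 with LPS. The part of these cells in the differences with LPS and between cell types was not tested.

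Of the 9 genes, 7 passed the filter and Il1r2 and Il1rl1 did not. Il1a and Il1b reached 1 FPKM only in LPS-treated libraries, Il1r1 only in osteoclast libraries and Il1rap only in macrophage libraries. For these genes the filter and the tests of those differences are not independent. In macrophages LPS raised all 7 genes tested, where 69.9% of all genes tested were called, 36.8% higher and 33.1% lower. In osteoclasts LPS raised 4 of the 7 (Il1a, Il1b, Il1rn and Il18bp), the other 3 (Il18, Il1r1 and Il1rap) were not called, and the background was 17.7% called, 11.1% higher and 6.59% lower. The Il18bp call was lost in 3 other settings and when any of 5 single libraries was left out. Without LPS, 2 of the 7 were higher in osteoclasts than in macrophages (Il1rn and Il1r1), 3 were lower (Il18, Il18bp and Il1rap) and 2 were not called (Il1a and Il1b), with 77.8% of all genes called, 38.8% higher and 39.0% lower. With LPS, 1 was higher (Il1r1) and 6 were lower, with 83.9% called, 40.9% higher and 43.0% lower. The LPS effect was smaller in osteoclasts for all 7 by the interaction term, though Il18 and Il1rap were not called by TPM, nor Il18 at a pseudocount of 0.1 or with voom, with 56.6% of all genes called, 26.6% above and 30.0% below 0. Ranges of the 2 groups lay apart for each of the 7 genes with LPS in macrophages (74.0% of all genes tested), 4 with LPS in osteoclasts (34.0%), 6 between the untreated cell types (81.4%) and 7 between the LPS-treated ones (83.6%). The median log2 difference of the 7 genes was 1.82 for LPS in macrophages, against 0.02 over all genes tested, and 0.33 for LPS in osteoclasts, against 0.01. The interaction had a median of -1.50 over the 7 genes, against -0.01 over all genes tested. In bulk RNA, fewer cells of a type and less RNA per cell cannot be told apart.

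**Figure D1:**
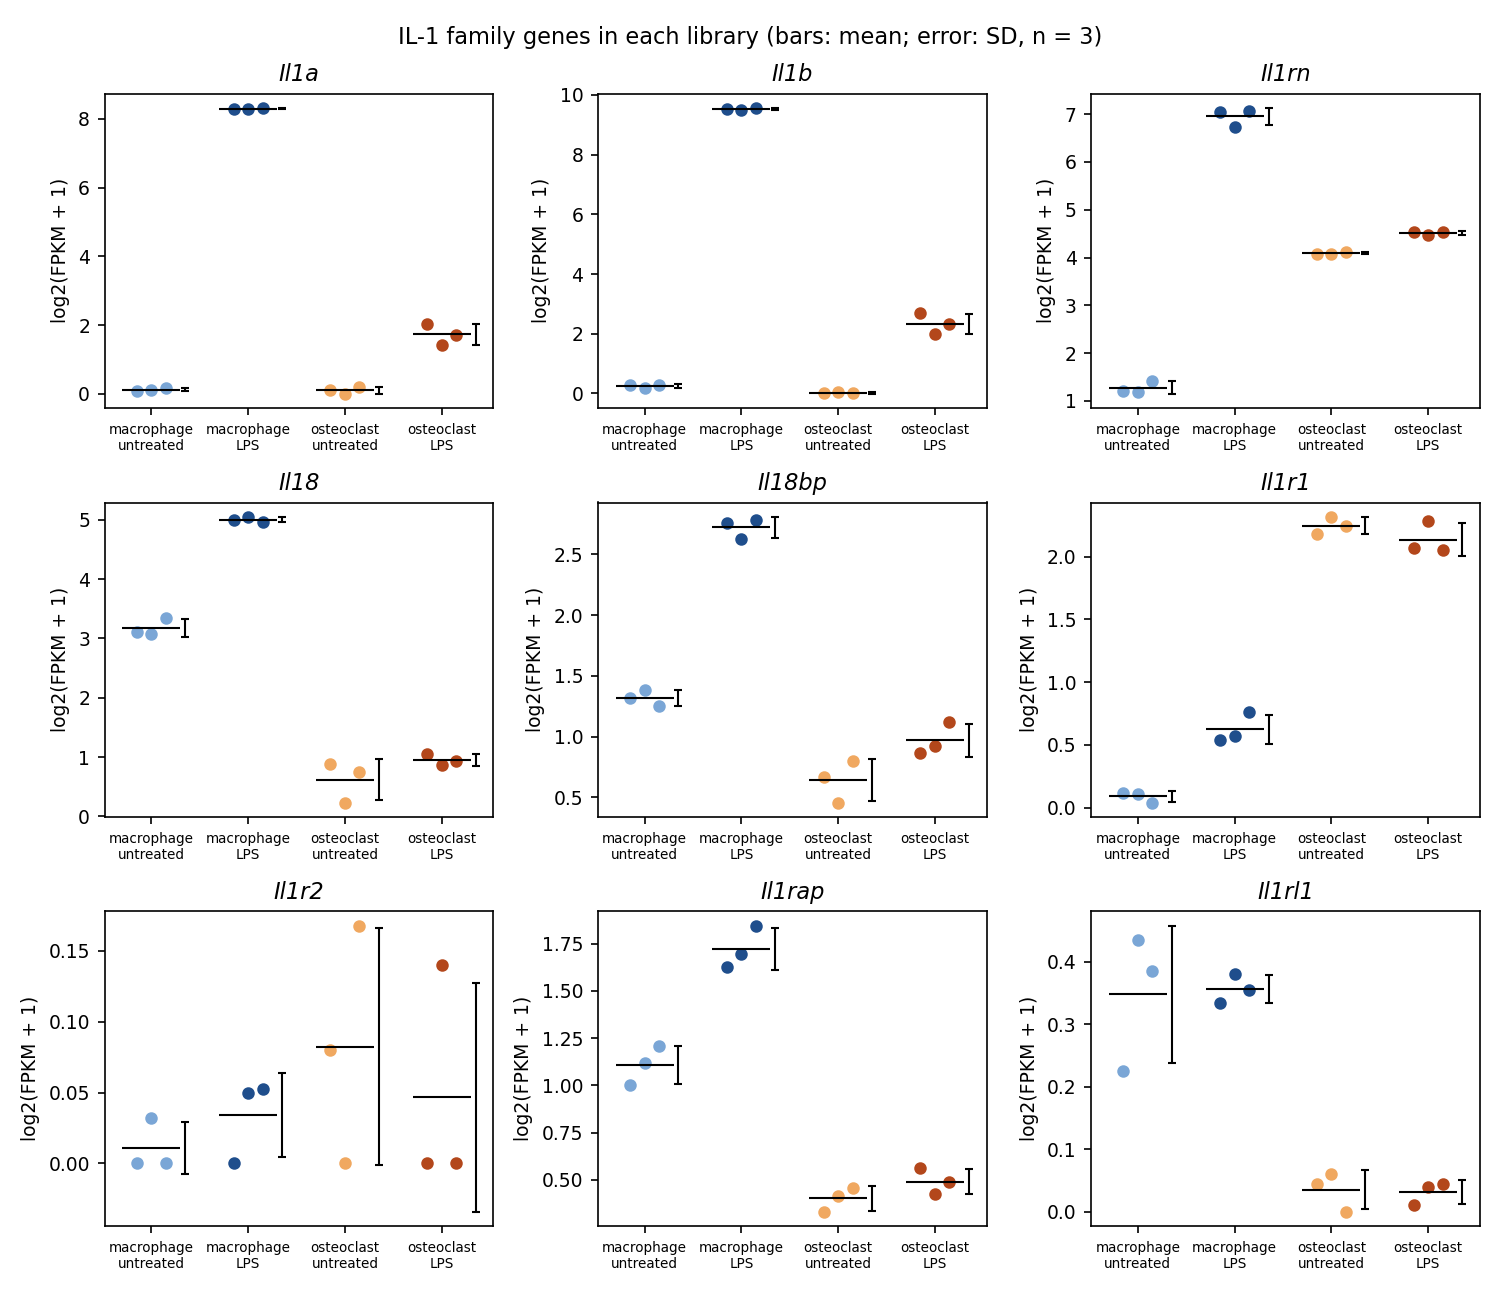
Level of each of the 9 genes in the 12 libraries as log2(FPKM + 1), with 1 panel per gene and its own vertical scale, a point per library, bars at the group mean and error bars of 1 SD (n = 3). Il1a and Il1b are near 0 in both untreated groups and highest in macrophages with LPS, Il1rn is higher in untreated osteoclasts than in untreated macrophages, and Il1r1 is highest in both osteoclast groups.

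The ligands Il1a and Il1b and the antagonist Il1rn, which held the highest levels of the 9 in LPS-treated macrophages, lie on chromosome 2 of GRCm38 (mm10): Il1a (ENSMUSG00000027399) at chr2:129299610-129309972 and Il1b (ENSMUSG00000027398) at chr2:129364570-129371139, both on the minus strand, and Il1rn (ENSMUSG00000026981) at chr2:24336853-24351494 on the plus strand. The 250 bases before their start sites are shown because these 3 genes had the largest LPS effects of the 7 tested in macrophages and differed between the cell types. The sequences are from RefSeq, build GRCm38.p6, given 5′ to 3′ on the strand of the gene, and capitals mark matches to the motifs searched. Il1a is chr2:129309973-129310222 (minus strand), Il1b is chr2:129371140-129371389 (minus strand), Il1rn start 1 is chr2:24336610-24336859 (plus strand) and Il1rn start 2 is chr2:24345041-24345290 (plus strand).
Il1a: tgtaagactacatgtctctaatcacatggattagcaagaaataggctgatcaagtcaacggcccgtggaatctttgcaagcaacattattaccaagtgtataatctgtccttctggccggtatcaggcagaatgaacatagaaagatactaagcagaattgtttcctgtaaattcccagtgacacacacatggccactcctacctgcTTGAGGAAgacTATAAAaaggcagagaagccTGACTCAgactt
Il1b: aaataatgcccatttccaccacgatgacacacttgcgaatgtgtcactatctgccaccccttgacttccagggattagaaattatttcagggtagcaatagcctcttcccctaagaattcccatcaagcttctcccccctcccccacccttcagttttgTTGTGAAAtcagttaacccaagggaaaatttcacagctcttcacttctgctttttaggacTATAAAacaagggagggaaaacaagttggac
Il1rn start 1: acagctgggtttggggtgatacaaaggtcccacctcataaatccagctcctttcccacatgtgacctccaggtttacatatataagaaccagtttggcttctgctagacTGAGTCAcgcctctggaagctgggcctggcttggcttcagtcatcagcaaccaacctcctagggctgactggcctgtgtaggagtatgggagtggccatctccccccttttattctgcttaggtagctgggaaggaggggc
Il1rn start 2: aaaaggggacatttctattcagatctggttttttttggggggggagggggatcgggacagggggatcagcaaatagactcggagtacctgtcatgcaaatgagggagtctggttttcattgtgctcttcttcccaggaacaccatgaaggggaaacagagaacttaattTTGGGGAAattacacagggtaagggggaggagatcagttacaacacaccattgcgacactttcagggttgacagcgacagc

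The windows of Il1a and Il1b both held a TATA box close to the start site, TATAAA on the strand of the gene at positions -32 to -27 for Il1a and -31 to -26 for Il1b, counted back from the start site. TATAAA occurred anywhere in the window for 7.59% of the 32851 mouse windows of this length. Both also held the C/EBP motif TTNNGNAA, at -43 to -36 in Il1a and at -91 to -84 in Il1b. This motif was found in 9 of the 13 windows of the 9 genes and in 36.8% of all windows, and the TATA box in 2 of the 13. The AP-1 motif TGANTCA, in 2 of the 13 windows and 6.75% of all windows, stood at -12 to -6 in Il1a and at -141 to -135 before the first start site of Il1rn, and read the same on both strands. Il1rn start 2 held a C/EBP match at -81 to -74. Another Il1rn window in the RefSeq table, chr2:24345121-24345370 (plus strand), overlaps that of start 2 and is not printed. It held the same match, there at -161 to -154, and C/EBP matches at -65 to -58 and -64 to -57 that overlap each other. The PU.1 motif AGGAAGT (7.69% of all windows) and the ISRE motif (the interferon-stimulated response element, 2.98%) had no match in any of the 13 windows of the 9 genes, and the NF-kB motif (3.9%) had 1, before the second start site of Il1r1 at -232 to -223 on the other strand, where it overlapped a C/EBP match at -236 to -229. All motifs but the TATA box were searched on both strands, and a match is a description of these letters and not a measured binding site. The deposited values are per gene and do not separate the start sites.

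Il1a was almost silent without LPS. Untreated macrophages had 0.0656, 0.0862 and 0.114 FPKM (12 reads over the 3 libraries) and untreated osteoclasts 0.0824, 0 and 0.149 FPKM (8 reads). With LPS, macrophages had 310.2, 312.5 and 318.3 FPKM and osteoclasts 3.12, 1.68 and 2.28 FPKM. Both LPS groups lay clear of their untreated groups, and the highest osteoclast library was below the lowest macrophage library. The ratio of mean FPKM for LPS against untreated was 3544 in macrophages (95% counting interval 2037 to 6889) and 30.6 in osteoclasts (15.6 to 73.1). With LPS, the mean was 133-fold lower in osteoclasts. The pseudocount of 1 shrinks differences of weakly expressed genes. In log2(FPKM + 1), Il1a rose by 8.18 ± 0.12 (SE) in macrophages (limma adjusted p = 1.20e-13) and by 1.62 ± 0.12 in osteoclasts (limma adjusted p = 1.52e-06). The interaction was -6.56 ± 0.17 (limma adjusted p = 5.32e-11). The untreated cell types overlapped and were not called (log2 difference -0.02 ± 0.12, limma adjusted p = 0.903), and counting intervals and floors here cover counting error only.

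Il1b, the ligand that needs cleavage, was the gene of the 9 with the highest level in any group. Untreated macrophages had 0.226, 0.134 and 0.212 FPKM (25 reads in all), and untreated osteoclasts had 0, 0.0310 and 0 FPKM, which was a single read over 3 libraries. With LPS, macrophages reached 733, 722 and 759 FPKM, and osteoclasts 5.40, 2.99 and 4.02 FPKM. No groups overlapped in any of the comparisons, and LPS-treated osteoclasts had a mean 178-fold below LPS-treated macrophages. Il1b rose by 9.28 ± 0.12 on the log2(FPKM + 1) scale in macrophages (limma adjusted p = 8.49e-14) and by 2.32 ± 0.12 in osteoclasts (limma adjusted p = 9.47e-08), with an interaction of -6.96 ± 0.18 (limma adjusted p = 4.86e-11). As a ratio of mean FPKM the LPS effect was 3871 in macrophages (counting interval 2629 to 5999) and 400.2 in osteoclasts (75.5 to 16740), where the untreated level rests on 1 read. The untreated osteoclast mean was 18.4-fold below the untreated macrophage mean by that ratio (3.11 to 779). The log2 difference of the untreated groups, -0.24 ± 0.12, was not called with limma at a pseudocount of 1 (adjusted p = 0.103), and it was called, at -1.39, with a pseudocount of 0.1.

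In LPS-treated osteoclasts, replicate 2 was the lowest library for both Il1a and Il1b and replicate 1 the highest. Adgre1 was also lowest in replicate 2 and highest in replicate 1 of that group, within a range of 42.5 to 73.1 FPKM. The 10 macrophage markers summed to between 1742 and 1831 FPKM in LPS-treated osteoclasts, 7 of the 10 had a mean of at least 1 FPKM and none was at 0, with Cd68 at 1374 FPKM and Csf1r at 292.8 FPKM making up most of the sum. Mrc1 was at 2.79 FPKM ± 1.01 (SD, n = 3) and Fcgr1, a high-affinity Fc receptor, at 1.50 ± 0.503 in these libraries. The part of remaining macrophages in the Il1a and Il1b levels of the osteoclast libraries was not tested. Without replicate 2 of LPS-treated osteoclasts the LPS effect in osteoclasts was 1.77 for Il1a and 2.49 for Il1b.

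Il18, the other ligand cleaved by caspase-1 (ENSMUSG00000039217, chr9:50554827-50581840, plus strand), differed from the IL-1 ligands in being present in untreated macrophages. It had 7.66, 7.43 and 9.19 FPKM in untreated macrophages (574 reads in all) and 30.9, 32.2 and 30.2 FPKM with LPS (1339 reads), 3.84-fold more by mean FPKM. Untreated osteoclasts had 0.841, 0.172 and 0.685 FPKM and LPS-treated osteoclasts 1.08, 0.818 and 0.903 FPKM. All macrophage libraries lay above all osteoclast libraries, while the 2 osteoclast groups overlapped. Il18 rose by 1.82 ± 0.14 on the log2(FPKM + 1) scale in macrophages (limma adjusted p = 1.70e-07). In osteoclasts the log2 difference of 0.33 ± 0.14 was not called (limma adjusted p = 0.132), though it was without replicate 1 of untreated osteoclasts, at 0.46. Il18 was lower in osteoclasts by a log2 difference of -2.56 ± 0.14 without LPS (limma adjusted p = 4.55e-09), 14.3-fold by the means, and by -4.05 ± 0.14 with LPS (limma adjusted p = 4.50e-11), 33.3-fold. Its interaction of -1.50 ± 0.20 (limma adjusted p = 4.09e-05) was not called by TPM (-0.76), with voom on recovered reads (-1.02) or at a pseudocount of 0.1 (-1.12).

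Il1rn, which encodes the antagonist that occupies IL1R1 without signalling, had the highest level of the 9 in both osteoclast groups. Untreated osteoclasts had 15.9, 15.8 and 16.3 FPKM against 1.33, 1.28 and 1.69 FPKM in untreated macrophages, an 11.2-fold higher mean. LPS took macrophages to 131.8, 105.9 and 132.2 FPKM and osteoclasts to 22.2, 21.2 and 22.2 FPKM. No 2 groups overlapped, and the order of the cell types turned over: osteoclasts were above macrophages without LPS and below them with LPS. The LPS effect was 86.1-fold in macrophages (log2 difference 5.67 ± 0.08, limma adjusted p = 1.20e-13) and 1.37-fold in osteoclasts (0.43 ± 0.08, limma adjusted p = 0.00369). Osteoclast minus macrophage was 2.81 ± 0.08 without LPS (limma adjusted p = 1.78e-11) and -2.44 ± 0.08 with LPS (limma adjusted p = 4.22e-11), and the interaction was -5.25 ± 0.12 (limma adjusted p = 2.31e-11). Each of these calls held in every setting tried.

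The balance of antagonist to ligands was read within each library as Il1rn over the sum of Il1a and Il1b, each in FPKM, a ratio that does not depend on how libraries were scaled. It was 4.54, 5.83 and 5.18 in untreated macrophages and 0.126, 0.102 and 0.123 in LPS-treated macrophages. In untreated osteoclasts it was 193, 510 and 109, where the 3 libraries held 9 ligand reads in all, and in LPS-treated osteoclasts 2.60, 4.53 and 3.52. Antagonist RNA thus exceeded ligand RNA per length in every library but those of LPS-treated macrophages, where ligand RNA exceeded it. The lengths are all annotated exons merged, 5535 bases for Il1rn, 1974 for Il1a and 1907 for Il1b, and the size of the ratio depends on them. In reads, LPS-treated macrophages had 28349 of Il1rn and 84593 of the 2 ligands. The groups did not overlap in any of the 4 comparisons, each with an exact two-sided permutation p of 0.1, the smallest that 3 against 3 can give. The log2 difference for LPS was -5.47 in macrophages and -5.99 in osteoclasts, and it became -5.11 and -4.70 with 0.1 FPKM added to both sides. With LPS, the ratio was 4.89 higher in osteoclasts than in macrophages on the log2 scale.

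**Figure D2:**
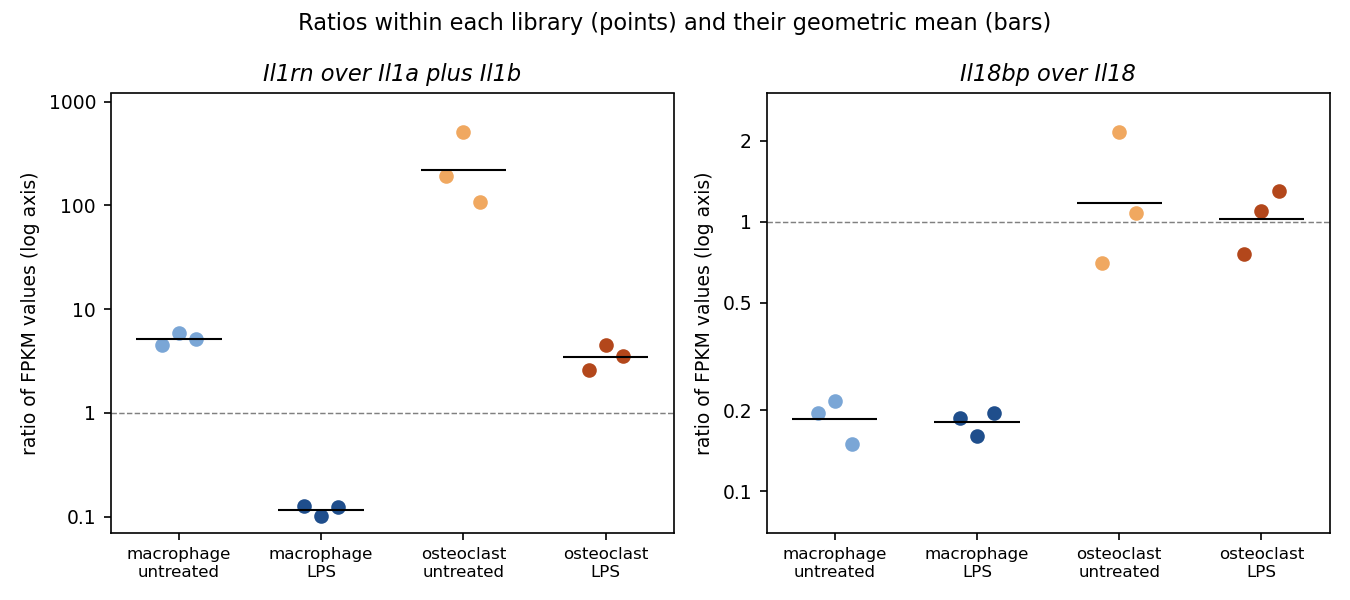
Ratio of FPKM values within each library, on log axes, for Il1rn over Il1a plus Il1b (left) and Il18bp over Il18 (right), with a point per library, bars at the geometric mean of 3 libraries and a dashed line at a ratio of 1. LPS-treated macrophages, at 0.102 to 0.126, are the 1 group below the line on the left, and both macrophage groups are below it on the right.

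Il18bp, the secreted protein that binds IL-18 (ENSMUSG00000070427, chr7:102014885-102018690, minus strand), was low throughout. Its values were 1.50, 1.60 and 1.38 FPKM in untreated macrophages, 5.77, 5.16 and 5.88 FPKM in macrophages with LPS, 0.591, 0.372 and 0.739 FPKM in untreated osteoclasts and 0.818, 0.900 and 1.18 FPKM in osteoclasts with LPS. No groups overlapped within any comparison, and macrophages were above osteoclasts with and without LPS. It rose 3.75-fold with LPS in macrophages (log2 difference 1.40 ± 0.10, limma adjusted p = 6.31e-08) and 1.70-fold in osteoclasts (0.33 ± 0.10, limma adjusted p = 0.0363). The call in osteoclasts was lost in 3 other settings and when any of 5 single libraries was left out, namely untreated macrophage replicate 1 (0.33), untreated osteoclast replicates 1 (0.34) and 2 (0.24) and LPS-treated osteoclast replicates 2 (0.35) and 3 (0.25). It was lower in osteoclasts by -0.68 ± 0.10 without LPS (limma adjusted p = 3.86e-05) and by -1.75 ± 0.10 with LPS (limma adjusted p = 3.73e-09), with an interaction of -1.08 ± 0.14 (limma adjusted p = 3.01e-05). Il18bp shares exon sequence with Numa1 on the opposite strand, which had 20.3, 17.9, 13.6 and 11.2 FPKM in untreated and LPS-treated macrophages and untreated and LPS-treated osteoclasts, and whether counting used strand is not stated, so its values are uncertain.

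Relative to its ligand, Il18bp stood higher in osteoclasts. The ratio of Il18bp to Il18 had a mean of 0.187 ± 0.0336 (SD, n = 3) in untreated macrophages and 0.181 ± 0.0180 with LPS, and 1.31 ± 0.755 in untreated and 1.05 ± 0.275 in LPS-treated osteoclasts. LPS groups overlapped in both cell types (exact two-sided permutation p = 0.8 in macrophages and 0.9 in osteoclasts). The cell types did not overlap, with log2 differences of 2.67 without and 2.51 with LPS and an exact permutation p of 0.1 for each. The osteoclast ratios rest on 31 reads of Il18 without and 52 with LPS.

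Il1r1, the signalling receptor for both IL-1 ligands (ENSMUSG00000026072, chr1:40225080-40317257, plus strand), was called higher in osteoclasts both with and without LPS. Macrophages had 0.0881, 0.0802 and 0.0282 FPKM untreated (29 reads in all) and 0.456, 0.484 and 0.693 FPKM with LPS. Osteoclasts had 3.53, 3.98 and 3.74 FPKM untreated and 3.19, 3.87 and 3.14 FPKM with LPS. Every osteoclast library was above every macrophage library, and the osteoclast groups overlapped each other. The mean was 57.2-fold higher in osteoclasts without LPS (counting interval 39.2 to 84.9) and 6.25-fold higher with LPS. Osteoclast minus macrophage was 2.16 ± 0.08 (limma adjusted p = 1.84e-10) and 1.51 ± 0.08 (limma adjusted p = 3.62e-09) on the log2(FPKM + 1) scale. Il1r1 reached 1 FPKM only in the 6 osteoclast libraries. It passed the filter through the cell type where it was high, so the filter and these 2 tests are not independent. LPS raised it in macrophages, by 0.53 ± 0.08 (limma adjusted p = 1.04e-04), 8.31-fold by the means (5.52 to 12.8), and in osteoclasts the difference was -0.11 ± 0.08 and not called (limma adjusted p = 0.403). The interaction was -0.65 ± 0.12 (limma adjusted p = 5.30e-04).

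Il1rap, the accessory chain that IL1R1 and the IL-33 and IL-36 receptors need to signal (ENSMUSG00000022514, chr16:26581704-26730117, plus strand), was distributed the other way. Its values were 1.00, 1.17 and 1.31 FPKM in untreated and 2.08, 2.24 and 2.59 FPKM in LPS-treated macrophages, against 0.258, 0.333 and 0.373 FPKM in untreated and 0.476, 0.343 and 0.400 FPKM in LPS-treated osteoclasts. The macrophage groups lay apart from each other and above the osteoclast groups, which overlapped. LPS raised it 1.99-fold in macrophages (log2 difference 0.61 ± 0.08, limma adjusted p = 2.73e-05), and in osteoclasts the log2 difference of 0.09 ± 0.08 was not called (limma adjusted p = 0.507). In reads, Il1rap had 907 in untreated and 1096 in LPS-treated macrophages, so the size of this fold depends on the scale per library. It was 3.61-fold lower in osteoclasts without LPS (-0.71 ± 0.08, limma adjusted p = 5.70e-06) and 5.68-fold lower with LPS (-1.23 ± 0.08, limma adjusted p = 2.27e-08). Its interaction of -0.52 ± 0.12 (limma adjusted p = 0.0021) was not called after rescaling to TPM (-0.15). Per length, Il1r1 was above Il1rap in osteoclasts and Il1rap above Il1r1 in macrophages, with no overlap between the 2 genes in any group.

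Il1r2, the decoy receptor (ENSMUSG00000026073, chr1:40074079-40125231, plus strand), gave 1 read in all untreated macrophages together and 2 in those with LPS, and 6 reads in all untreated osteoclasts together and 3 in those with LPS. At least 1 library of every group was at 0, and no difference was detectable at this depth. Il1r1 had 1247 reads in the untreated osteoclasts in which Il1r2 had 6. Il1rl1, the receptor for IL-33 (ENSMUSG00000026069, chr1:40429570-40465415, plus strand), was at 0.169, 0.352 and 0.306 FPKM in untreated and 0.261, 0.301 and 0.279 FPKM in LPS-treated macrophages. These were 131 and 81 reads in all. Osteoclasts had 0.0314, 0.0429 and 0 FPKM untreated and 0.00733, 0.0282 and 0.0318 FPKM with LPS. All macrophage libraries were above all osteoclast libraries, and the mean was 11.1-fold lower in osteoclasts without LPS (counting interval 5.65 to 24.7) and 12.5-fold lower with LPS (6.28 to 31.1). Neither gene passed the filter, so no test was made.

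**Figure D3:**
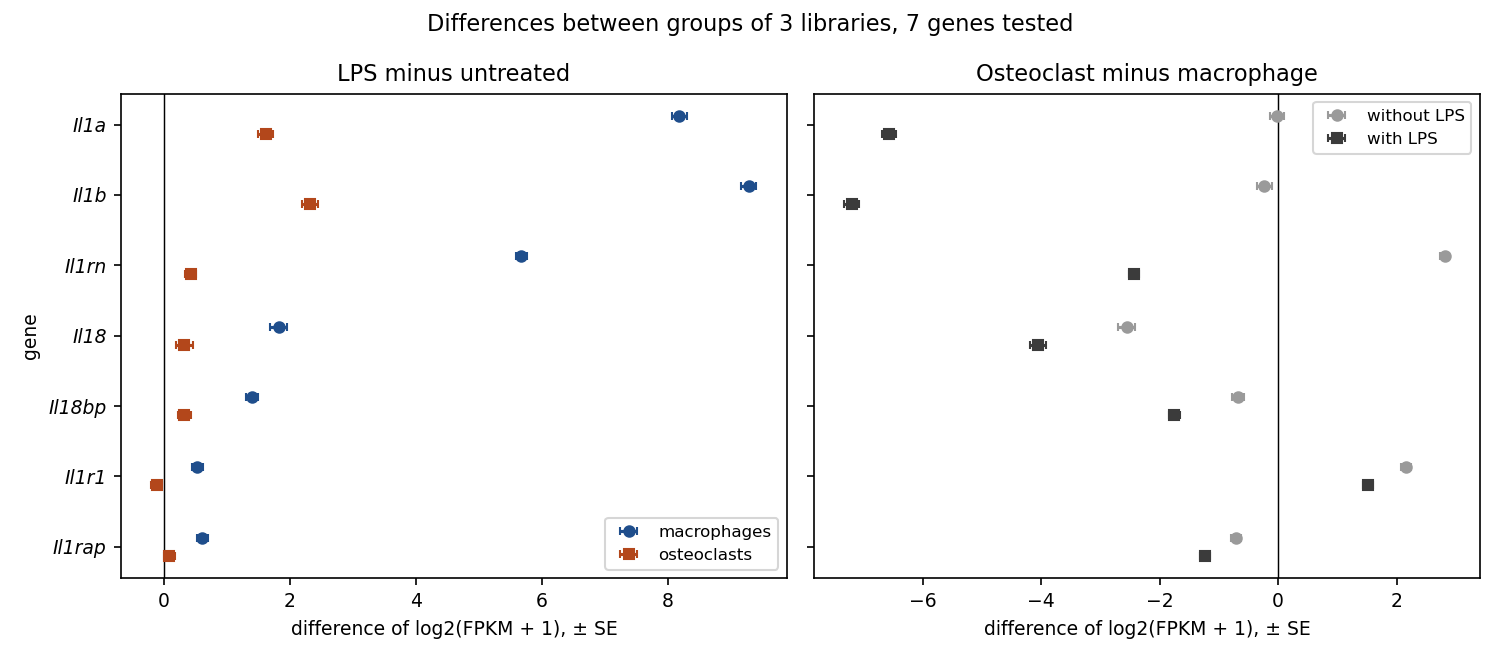
Differences of log2(FPKM + 1) with their SE for the 7 genes tested, LPS minus untreated in macrophages (circles) and osteoclasts (squares) on the left, and osteoclast minus macrophage without LPS (circles) and with LPS (squares) on the right. For every gene the osteoclast LPS effect lies left of the macrophage one, and Il1rn changes sides between the conditions on the right, from 2.81 to -2.44.

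Ranked by mean FPKM, which is per length, the 9 genes took a different order in each group. In untreated macrophages Il18 led at 8.09 FPKM, ahead of Il18bp, Il1rn and Il1rap at 1.49, 1.43 and 1.16, of which neighbours overlapped, and the other 5 were below 0.28 FPKM. With LPS the order was Il1b at 738, Il1a at 314, Il1rn at 123, Il18 at 31.1, Il18bp at 5.60, Il1rap at 2.31 and Il1r1 at 0.544 FPKM, and no neighbours overlapped. In untreated osteoclasts Il1rn at 16.0 FPKM and Il1r1 at 3.75 FPKM stood apart from the rest, and Il18bp at 0.567 and Il18 at 0.566 overlapped. In LPS-treated osteoclasts Il1rn at 21.8 FPKM again led, Il1b at 4.14 and Il1r1 at 3.40 overlapped, and Il1a followed at 2.36 FPKM.

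For each of the 7 genes tested, the genes with the most similar profile were those with the smallest root mean square difference of log2(FPKM + 1) over the 12 libraries after centring each gene on its own mean. For Il1a these were Iigp1 (0.47), Dusp2 (0.48) and Il1b (0.51), and for Il1b they were Il1a (0.51), Socs3 (0.54) and Iigp1 (0.88). For Il1rn they were Rnd3 (0.47), Gbp7 (0.53) and Tnfaip2 (0.57), and Rnd3 had the same order of groups, at 1.51 and 88.9 FPKM in untreated and LPS-treated macrophages and 7.28 and 9.99 FPKM in osteoclasts. For Il18 they were Fyb, Notch1 and Cd86 (0.23 each), for Il18bp Sertad2, Sec24b and Cdc14a (0.11 to 0.12), for Il1r1 they included Twsg1 and Col15a1 (0.10 each), and for Il1rap Ube2d2a, Khdrbs1 and Vsig10l (0.07 to 0.08). Genes of small change have small differences by this measure, and the libraries share 4 group means.

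Of 12 other IL-1 family ligands and receptors, all in the table, 2 passed the filter. Il33, an alarmin and the ligand of the Il1rl1 receptor, had no read in untreated macrophages or in any osteoclast library and 1.17, 1.49 and 1.04 FPKM in LPS-treated macrophages. That is at least 81.6-fold higher with LPS against a floor of 3 reads over the group (log2 difference 1.15 ± 0.08, limma adjusted p = 8.21e-08). Il33 reached 1 FPKM only in the 3 LPS-treated macrophage libraries. It passed the filter through the group where it was high, so filter and test are not independent. Il36g, an IL-36 ligand, had no read in untreated macrophages and 2.14, 2.91 and 1.75 FPKM in untreated osteoclasts. It was at least 85.8-fold higher in untreated osteoclasts (log2 difference 1.69 ± 0.12, limma adjusted p = 7.85e-08). Il36g reached 1 FPKM only in the 6 osteoclast libraries. It passed the filter through the cell type where it was high, so the filter and the tests between cell types are not independent. With LPS, Il36g was at 0.666, 0.976 and 0.777 FPKM in macrophages and at 2.85, 3.11 and 3.82 FPKM in osteoclasts, 4.05-fold higher in osteoclasts (1.24 ± 0.12, limma adjusted p = 1.28e-06). Its LPS effect was 0.85 ± 0.12 in macrophages (limma adjusted p = 6.14e-05), and 0.39 ± 0.12 in osteoclasts, where the groups overlapped and the call (limma adjusted p = 0.0491) was lost in 6 of the 8 other settings and when any 1 library other than untreated osteoclast replicate 2 was left out. The receptors for these ligands were scarce: Il1rl2, the IL-36 receptor, was at 0.208 FPKM ± 0.0732 (SD, n = 3) in untreated macrophages and 0.0361 ± 0.0165 in untreated osteoclasts. Il18r1, the IL-18 receptor chain, was listed at 0 in all 12 libraries.

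Processing and release of IL-1 was followed in 10 genes, of which LPS raised 8 (Pycard was lower by TPM) and lowered 2 (Nlrc4 and Nlrp1b) in macrophages and raised 4 (Casp1, Casp4, Nlrp3 and Ninj1) in osteoclasts, the other 6 not called. Of all genes tested, 36.8% were called higher and 33.1% lower in macrophages and 11.1% higher in osteoclasts. Without LPS, 3 of the 10 were higher in osteoclasts (Mefv, Gsdmd and Casp4) and 7 lower, and with LPS all 10 were lower, though Gsdmd was not called with quantile normalization (-0.08). Over all genes tested, 38.8% were higher and 39.0% lower in osteoclasts without LPS, and 43.0% were lower with LPS. Casp1, which cleaves the precursors, had 25.0 FPKM ± 1.04 (SD, n = 3) in untreated macrophages and 132.6 ± 19.1 with LPS, against 16.8 ± 0.712 and 24.8 ± 3.79 in osteoclasts. It rose by 2.35 ± 0.11 in macrophages (limma adjusted p = 1.55e-09) and by 0.53 ± 0.11 in osteoclasts (limma adjusted p = 0.00529). Nlrp3, the inflammasome sensor, was at 22.3 ± 2.01 and 182.6 ± 4.69 FPKM in macrophages and at 0.788 ± 0.131 and 17.9 ± 3.65 FPKM in osteoclasts, 8.17-fold and 22.8-fold higher with LPS. It rose by 2.98 ± 0.12 and 3.39 ± 0.12 on the log2 scale (limma adjusted p = 3.80e-10 and 3.28e-09). The interaction of 0.41 ± 0.17 was not called (limma adjusted p = 0.0558), and was called in 6 of the other settings and without LPS-treated osteoclast replicate 2 (0.57).

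Casp4, the caspase that senses cytosolic LPS, had 2.56 FPKM ± 0.255 (SD, n = 3) in untreated macrophages and 7.87 ± 0.350 in untreated osteoclasts, and with LPS it had 52.0 ± 5.75 and 13.9 ± 1.79. Like Il1rn, it was thus higher in osteoclasts without LPS (log2 difference 1.32 ± 0.10, limma adjusted p = 7.25e-08) and lower with LPS (-1.83 ± 0.10, limma adjusted p = 2.27e-09). Gsdmd, the pore-forming protein of pyroptosis, was at 20.1 ± 0.693 and 55.0 ± 4.88 FPKM in macrophages without and with LPS and at 38.1 ± 1.32 and 41.8 ± 1.96 FPKM in osteoclasts. Pycard, the ASC adaptor, rose by 0.40 ± 0.06 with LPS in macrophages (limma adjusted p = 7.51e-05), but by TPM it was lower, at -0.19. It was lower in osteoclasts, 1.89 ± 0.140 against 7.78 ± 0.247 FPKM untreated (log2 difference -1.60 ± 0.06, limma adjusted p = 1.57e-10). Pycard shares exon sequence with Gm45205 on the opposite strand, so its values are uncertain.

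Of 17 genes of IL-1 receptor signalling, LPS raised 14 and lowered 2 (Tab1 and Irak4) in macrophages, and raised 7 and lowered none in osteoclasts, where 10 were not called. The background was 69.9% of all genes called in macrophages (36.8% higher) and 17.7% in osteoclasts (11.1% higher). By TPM, 6 of the 14 (Ikbkg, Tollip, Chuk, Traf6, Map3k7 and Tab3) had lower values with LPS in macrophages, leaving 8 called higher and 7 lower, and Tollip and Map3k7 were also lower with quantile normalization. Myd88, the adaptor of IL-1 and most Toll-like receptors, rose 7.32-fold in macrophages and 1.49-fold in osteoclasts, to 104 ± 4.32 and 14.5 ± 0.408 FPKM (SD, n = 3). The feedback genes Tnfaip3 (A20) and Nfkbia (IkB alpha) rose 80.1-fold and 15.9-fold in macrophages and 2.26-fold and 1.31-fold in osteoclasts. Both were higher in untreated osteoclasts, Nfkbia at 215.9 ± 8.06 FPKM against 64.9 ± 0.776, and both were lower in osteoclasts with LPS. Map3k8, a kinase upstream of ERK, went from 1.97 ± 0.0753 to 60.6 ± 1.59 FPKM in macrophages and from 1.21 ± 0.0440 to 3.67 ± 0.284 FPKM in osteoclasts.

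Traf6, the ubiquitin ligase that IL-1 receptors and RANK share, was higher in osteoclasts in both conditions, 14.4 ± 0.743 against 5.90 ± 0.178 FPKM (SD, n = 3) without LPS and 15.3 ± 0.518 against 8.85 ± 0.843 FPKM with LPS. Tab1, a subunit of the TAK1 kinase complex, was the strongest fall of the list: macrophages had 8.90 ± 0.671 FPKM untreated and 1.78 ± 0.245 with LPS (log2 difference -1.83 ± 0.08, limma adjusted p = 7.24e-10). In osteoclasts it had 9.66 ± 0.181 and 8.58 ± 0.825 FPKM and was not called (-0.16 ± 0.08, limma adjusted p = 0.2), and the interaction was 1.68 ± 0.11 (limma adjusted p = 1.08e-07). Irak2, a kinase that sustains the signal, rose by 1.96 ± 0.05 in macrophages (limma adjusted p = 9.94e-12) and by 0.29 ± 0.05 in osteoclasts (limma adjusted p = 0.0019). Irak3 (IRAK-M), its inhibitory relative, rose 4.14-fold in macrophages and 3.71-fold in osteoclasts. Its interaction of -0.65 was not called at a pseudocount of 0.1 (-0.26), with voom (-0.16) or by TPM (0.14). Exons of Myd88, Irak2, Irak3, Irak4 and Ikbkg overlap genes of the other strand, and those of Irak1 overlap microRNA genes of its own strand, so their values are uncertain.

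The 8 IL-1-inducible genes that LPS also raises, Il6, Tnf, Ptgs2, Cxcl1, Cxcl2, Nfkbiz, Zc3h12a and Saa3, all rose in both cell types. Of all genes tested, 36.8% were called higher in macrophages and 11.1% in osteoclasts. The median log2 difference of the 8 was 6.08 in macrophages and 3.69 in osteoclasts, against 0.02 and 0.01 over all genes tested. The list was chosen for genes that LPS raises, so these counts are a description. All 8 were lower in LPS-treated osteoclasts than in LPS-treated macrophages, as were 43.0% of all genes tested. Il6 went from 2 reads to 133.4 FPKM ± 6.38 (SD, n = 3) in macrophages and from none to 4.86 ± 1.27 FPKM in osteoclasts, at least 206-fold. Tnf rose 27.0-fold in macrophages, from 54.9 ± 3.49 to 1484 ± 115 FPKM, and 18.5-fold in osteoclasts, from 7.67 ± 1.09 to 141.9 ± 30.2 FPKM. All 8 interactions were called below 0 on the log2(FPKM + 1) scale, as were 30.0% of all genes tested, but with voom on recovered reads 3 were (Il6, Tnf and Zc3h12a) and 5 were not called. By TPM 5 were called below 0 and 1 (Cxcl2) above, and 2 (Tnf, at -0.04, and Ptgs2) were not called. The interaction of Cxcl2 (-0.85) turned to 0.68 with a pseudocount of 0.1, 0.52 by TPM and 1.11 with voom, that of Ptgs2 (-1.89) to 0.57 with a pseudocount of 0.1 and 2.62 with voom, and that of Tnf (-0.71) to 0.11 with quantile normalization. These genes respond to LPS directly, so their levels do not separate IL-1 signalling from LPS.

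**Figure D4:**
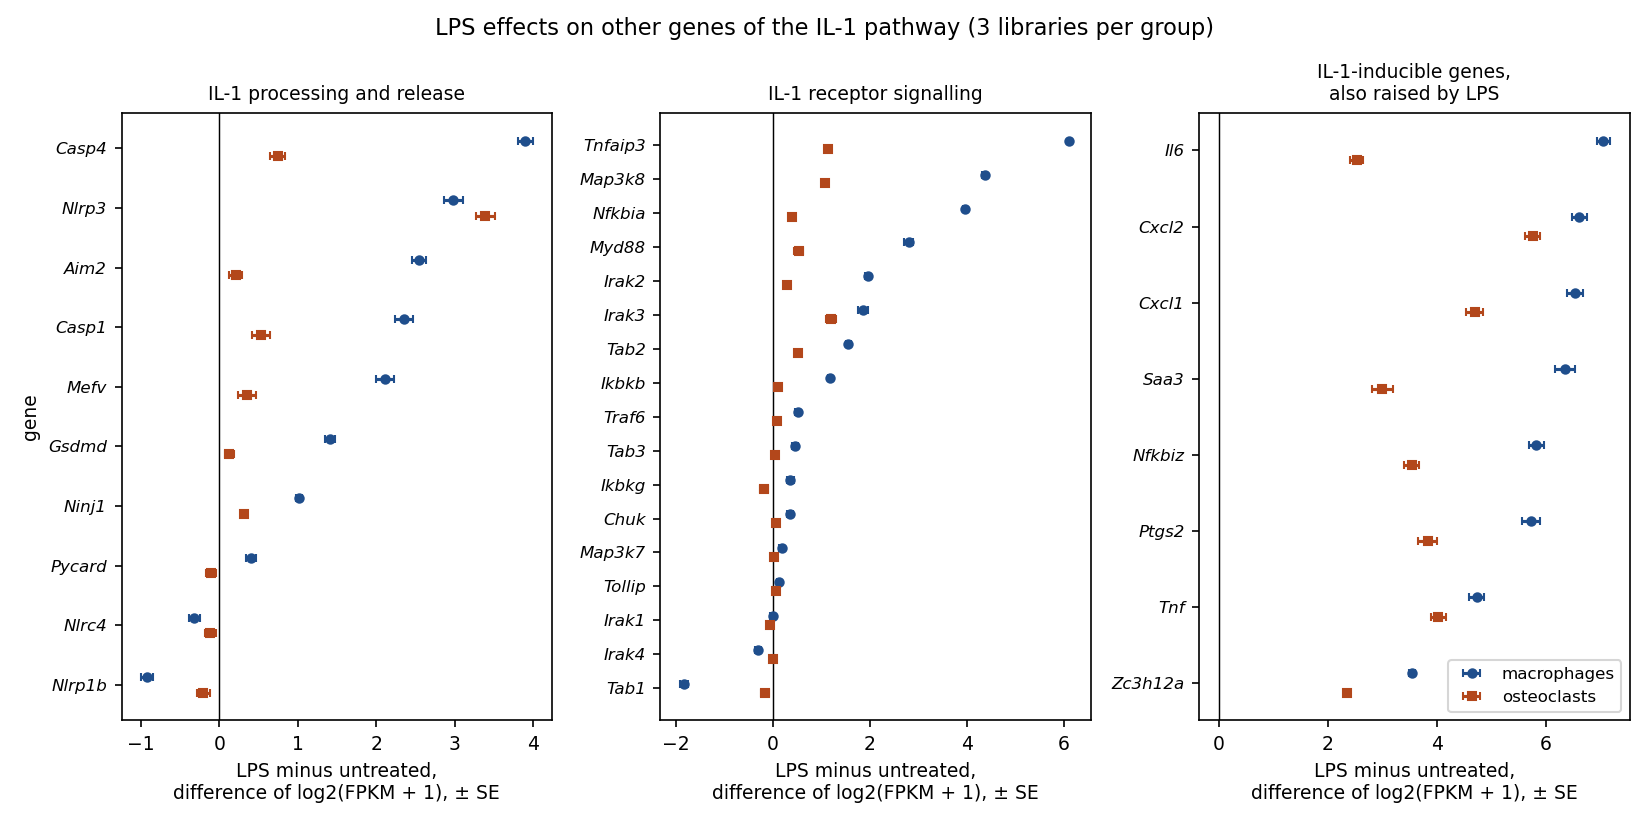
LPS minus untreated as the difference of log2(FPKM + 1) with its SE, in macrophages (circles) and osteoclasts (squares), for 10 genes of processing and release, 17 of receptor signalling and 8 IL-1-inducible genes, each list ordered by the macrophage value. Nlrp3 and the inducible genes keep large differences in osteoclasts, at 3.39 for Nlrp3, while Tab1 falls in macrophages, by 1.83 on the log2 scale.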

How the data were processed

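RNA-seq of 12 libraries (4 groups of 3, from the sample titles) was analysed from 1 table of FPKM that the authors deposited. Per the submitters' processing notes, fastp, STAR, featureCounts and DESeq2 and build mm10 were used, with no versions or parameters. From the values, whole reads were recovered for 25016 of the 25842 genes above 0 with a GENCODE M21 length (96.8%, tolerance 0.02 of a read), and the scale per library departed by at most 0.15% from median-of-ratios size factors, so a difference is relative to the typical gene. This scaling and the annotation are inferred. Il36 genes were matched through RefSeq synonyms.

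Limma 3.58.1 in R 4.3.3 (variance trend, two-sided, pseudocount 1, all 12 libraries in 1 fit of 4 group means) gave log2 differences, after tests on simulated data. Ratios within a library used an exact permutation test, and that of Il1r2 over Il1r1 had libraries at 0 and no test. Counting intervals are 95% and floors are 3 reads over a group. Alternative settings were TPM, a minimum mean of 5 FPKM, no filter, a pseudocount of 0.1, quantile normalization, only the groups compared, a replicate block, no variance trend, voom on recovered reads and each library left out. The members and lists were chosen with earlier results of these data known. All 9 members were named, any gene of the lists could be, and the 18 list genes with tests in each comparison were chosen after their values were seen. The values for the genes that share exon sequence on opposite strands, among them Il1a with Gm14023, Il1b with Il1bos and Il1rap with Gm20319, are uncertain because the use of strand is not stated. A gene similar in profile to Il1r1 is not reported here.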

Additional observations from a re-analysis of the deposited data

Results flagged for a closer look

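Osteoclasts and macrophages differed in their response to LPS, by limma's interaction term at an adjusted p under 0.05, for all 7 IL-1 family genes tested, where 56.6% of all genes tested were called and 30.0% were called below 0. By TPM, Il18 (-0.76) and Il1rap (-0.15) were not called, nor was Il18 at a pseudocount of 0.1 (-1.12) or with voom (-1.02). The values on the log2(FPKM + 1) scale, osteoclasts minus macrophages, were -6.56 for Il1a, -6.96 for Il1b, -5.25 for Il1rn, -1.50 for Il18, -1.08 for Il18bp, -0.65 for Il1r1 and -0.52 for Il1rap. As the difference of log2 ratios of mean FPKM, with no pseudocount, they were -6.86 for Il1a, -3.27 for Il1b, -5.98 for Il1rn, -1.22 for Il18, -1.14 for Il18bp, -3.19 for Il1r1 and -0.65 for Il1rap, that of Il1b resting on 1 read in untreated osteoclasts.

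The ligands Il33 and Il36g differed, with -1.15 for Il33 and -0.46 for Il36g, where the Il36g value (limma adjusted p = 0.0434) lost its call with no filter (adjusted p = 0.113) and when any of 9 single libraries was left out. Of the 10 genes of processing and release, 7 were called below 0, 1 (Nlrp1b, at 0.72, but -0.36 with voom) above 0 and 2 (Nlrp3 and Nlrc4) were not called. Ninj1 (-0.70) turned to 0.03 with quantile normalization. Among the others the values were -1.82 for Casp1, -3.15 for Casp4, -1.28 for Gsdmd and -0.51 for Pycard, which was -0.0033 and not called by TPM. Of the 17 genes of receptor signalling, 12 were called below 0, 2 (Tab1 and Irak4) above and 3 not, and by TPM 7 below, 6 above and 4 not. Among them the values were -2.26 for Myd88, -1.66 for Irak2, -0.65 for Irak3 and -0.43 for Traf6 (both above 0 and not called by TPM, and Irak3 also not called at a pseudocount of 0.1 or with voom), -3.29 for Map3k8, -4.98 for Tnfaip3 and -3.58 for Nfkbia, and 1.68 for Tab1, which fell in macrophages. Among the inducible genes they were -4.53 for Il6, -0.71 for Tnf, which turned to 0.11 with quantile normalization and was not called by TPM (-0.04), and -0.85 for Cxcl2, which turned to 0.68 at a pseudocount of 0.1, 0.52 by TPM (called) and 1.11 with voom. Groups of 3 libraries are too small for the outlier test used on larger groups, so no library was singled out that way.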

How the results depend on the processing

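Of 293 values of the 7 tested members recomputed with all libraries, 281 kept their direction and their side of the threshold, and of 420 recomputed without 1 library, 411 did. Of the ratios within a library, 2 of 8 moved by more than the spread between replicates with 0.1 FPKM added, and 0 of 48 did without 1 library. For the 18 list genes these were 754 of 782 and 1059 of 1080. Requiring a mean of at least 5 FPKM left 6430 genes and fewer to call: 4851 for LPS in macrophages (7921 otherwise), 5427 for osteoclasts against macrophages without LPS (8822), 5694 with LPS (9509) and 4018 interactions (6413). Il1a between the untreated cell types turned to 0.026 with quantile normalization, and without 1 library ranged from -0.065 to 0.035, the latter without untreated osteoclast replicate 2. By TPM the values turned to -0.19 for Pycard and -0.064 for Traf6 (LPS in macrophages), to -0.19 for Irak2 and -0.29 for Tab1 (untreated cell types) and to 0.14 for Irak3 and 0.080 for Traf6 (interaction). The interaction of Cxcl2 turned to 0.68 (pseudocount of 0.1), 0.52 (TPM) and 1.11 (voom), and that of Tnf to 0.11 (quantile). The antagonist ratio moved to -5.11 and -4.70 with 0.1 FPKM added. Il1b between the untreated cell types was called with a pseudocount of 0.1 (-1.39), TPM (-0.75), voom (-3.19), only the groups compared (-0.24) and without LPS-treated osteoclast replicate 1 or 2 (-0.24). TPM shifted the median of all genes by -0.58 for LPS in macrophages, -0.38 for the untreated cell types, 0.14 with LPS and 0.53 for the interaction, and quantile normalization by -0.16 for LPS in macrophages and 0.11 between the LPS-treated cell types. The share of calls that were higher went from 52.6% to 18.5% (TPM) and 37% (quantile) for LPS in macrophages, from 62.8% to 43.5% and 38.5% for LPS in osteoclasts, from 49.9% to 29.9% (TPM) for the untreated cell types and from 47% to 82% and 59.9% for the interaction. The cause was not tested. Without 1 library, LPS in osteoclasts had between 1432 and 2031 calls. Replicate numbers are shared between groups. Of 18 pairs of same-numbered libraries, 1 had a correlation of deviations over 0.1 (-0.07 to 0.10), and 14 of 36 best matches had the same number. These values do not show a pairing, and they cannot exclude one. Whether libraries of the same number share an origin is not stated. With the replicate block the calls were 7914 for LPS in macrophages, 1930 for LPS in osteoclasts, 8787 between the untreated and 9512 between the LPS-treated cell types and 6422 for the interaction, and no call of a member changed. Depth limits Il1r2, Il1rl1 and the untreated levels of Il1a and Il1b, which rest on 25 reads or fewer per group for the ligands.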

Other observations

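Among the other IL-1 family genes under the filter, Il18rap, a chain of the IL-18 receptor, was at 0.121, 0.164 and 0.153 FPKM in untreated macrophages and at 0.696, 0.556 and 0.706 FPKM with LPS. Osteoclasts had between 0 and 0.0406 FPKM of it with and without LPS. Sigirr, an inhibitory receptor of the family, was at 0.397, 0.461 and 0.369 FPKM in untreated macrophages and at 0.0712, 0.0195 and 0.0773 FPKM in untreated osteoclasts. In the libraries with LPS it was at 0.335, 0.242 and 0.631 FPKM in macrophages and 0.216, 0.213 and 0.0540 FPKM in osteoclasts, so that no macrophage library lay below an osteoclast library. The non-coding transcript Gm14023, opposite Il1a, had 207 reads in LPS-treated macrophages, 2 in untreated macrophages, 20 in untreated and 18 in LPS-treated osteoclasts. Il1bos, opposite Il1b, had 63, 2, 2 and 3 reads in the same order of groups.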
